A study of Mus musculus with 36 samples.

Results

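Transcripts of 8 genes linked to growth arrest and to the tumour suppressor p53 were followed across 36 bulk RNA-seq libraries of mouse embryonic fibroblasts. The genes are Gadd45a, Gadd45b, Gadd45g, Cdkn1a, Btg2, Mdm2, Trp53inp1 and Ccng1. They are 8 of the 36856 gene symbols in the count table and 8 of the 16065 genes that passed the filter on low counts. All 8 passed it. They were chosen by name with results over all 12 groups known, so their levels, differences and calls are given as a description, with no p-value. The cells were WT or PERK -/- fibroblasts, the latter called Perk-null here. Each genotype received the solvent DMSO, thapsigargin (Tg), BtdCPU, halofuginone (Hf), BtdCPU with Tg (BtdCPU+Tg) or Hf with Tg (Hf+Tg), with 3 libraries in each of the 12 groups. The labels give no dose, time, batch or embryo. How the Perk-null cells were made, how many lines were used and their p53 status are not given in the sources used here. Nothing in the labels says that replicates came from separate cultures, so the spread between them may be technical. Thapsigargin blocks the calcium pump of the endoplasmic reticulum, and PERK is the kinase that phosphorylates eIF2 alpha when proteins fail to fold there. BtdCPU acts on a sister kinase, HRI, and halofuginone inhibits prolyl-tRNA synthetase and so acts on GCN2. The series title frames the compounds as activators of a compensatory kinase in cells that lack PERK.

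p53, encoded by Trp53, is a transcription factor held at a low level by the ubiquitin ligase MDM2, itself a p53 target, so that the pair forms a feedback loop. When p53 is stabilised it raises Cdkn1a, whose product p21 inhibits cyclin-dependent kinases and stops the cell cycle, along with Btg2, Ccng1, Trp53inp1 and Gadd45a. The 3 GADD45 proteins are small stress-induced regulators that bind PCNA, p21 and the kinase MTK1 (Map3k4), and their genes are known to respond to other stress pathways as well. Phosphorylated eIF2 alpha lowers general translation but favours ATF4, which with its partner CHOP (Ddit3) drives the integrated stress response. Some genes, Gadd45a among them, are known to respond to both p53 and this programme.

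Libraries held 32454257 to 37178107 counts. Levels are CPM, read counts scaled to a common total, on TMM-scaled library sizes. Fold changes are log2 values from edgeR ± SE, and a gene is called where its adjusted p was under 0.05 over all 16065 genes. Eif2ak3, the gene of PERK, stood at 30.3, 32.4 and 30.7 CPM in WT DMSO libraries and at 9.37, 9.67 and 10.8 CPM in Perk-null DMSO libraries, and over the 6 treatments the Perk-null mean was 23.8% to 42.8% of the WT mean. All 8 fibroblast markers were present, summing to 13322 to 38964 CPM in a library. In DMSO all 8 had a lower mean in Perk-null than in WT libraries. The means ran from close for Col1a2 (5655 and 5840 CPM) to far apart for Pdgfra (56 and 332 CPM). Markers of other cell types summed to at most 23.5 CPM for epithelial, 22.9 for haematopoietic, 5.06 for endothelial, 0.621 for muscle and 0.135 for neural cells, with both muscle and neural sums at 0 in the lowest library. In bulk libraries, fewer cells that express a gene and less RNA per cell cannot be told apart.

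Stretches before the annotated starts of 4 of the genes are shown: the 3 Gadd45 genes, so that the members of 1 family can be compared, and Cdkn1a, which held the most p53 half-site matches. They come from RefSeq on build GRCm38.p6, while the submitters' notes name GRCm39 for the counts. Promoters of 7 of the 8 genes were matched, all but Trp53inp1. Capitals mark matches, on either strand, to a p53 half-site decamer, the ATF4-C/EBP element TGATGNAAN, the cyclic AMP response element TGACGTCA, the AP-1 site TGANTCA, the octamer ATTTGCAT, CCAAT and the E-box CACGTG. Each line reads 5′ to 3′ on the strand of the gene, with positions counted from the start.
Gadd45a (chr6:67037423-67037509, minus strand, -102 to -16): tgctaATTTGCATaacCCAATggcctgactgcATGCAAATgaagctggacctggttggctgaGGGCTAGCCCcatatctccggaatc
Gadd45b (chr10:80929901-80930010, plus strand, -190 to -81): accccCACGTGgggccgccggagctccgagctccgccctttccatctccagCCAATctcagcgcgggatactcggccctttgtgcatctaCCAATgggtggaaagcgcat
Gadd45g (chr13:51846528-51846616, plus strand, -147 to -59): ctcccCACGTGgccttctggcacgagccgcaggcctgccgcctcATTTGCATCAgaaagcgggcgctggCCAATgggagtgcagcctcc
Cdkn1a (chr17:29090901-29090952, plus strand, -78 to -27): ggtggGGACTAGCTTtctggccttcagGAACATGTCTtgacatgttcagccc

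The window searched ran from 250 bases before to 50 after each start. That of Gadd45a held 1 p53 half-site, GGGCTAGCCC at -40, with 2 octamers at -97 and -70 and 1 CCAAT between them. Gadd45g held 1 match to the ATF4-C/EBP element, TTTGCATCA at -102 on the opposite strand, which overlaps its octamer. Gadd45b held 1 E-box and 2 CCAAT matches. Cdkn1a has 2 annotated starts. The window of the first, shown here, held 2 half-sites, GGACTAGCTT at -73 and GAACATGTCT at -51, and that of the second held no match to any of these motifs. Mdm2 and Ccng1 held 1 half-site each, at -186 and -185. Btg2 held the cyclic AMP response element TGACGTCA at -166. Of 32851 promoters, 8.36% held a half-site, 3.95% the ATF4-C/EBP element, 1.79% the cyclic AMP response element, 1.74% the octamer, 7.15% the E-box, 37.4% CCAAT and 7.81% the AP-1 site. Of the 8 promoters of the 7 matched genes, 4 held a half-site, 1 the ATF4-C/EBP element, 1 the cyclic AMP response element, 2 the octamer, 2 the E-box, 6 CCAAT and 0 the AP-1 site. A match is a description of letters in this window and not a binding site, and p53 is known to bind Mdm2 and Gadd45a within introns that the window does not reach.

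**Figure D1:**
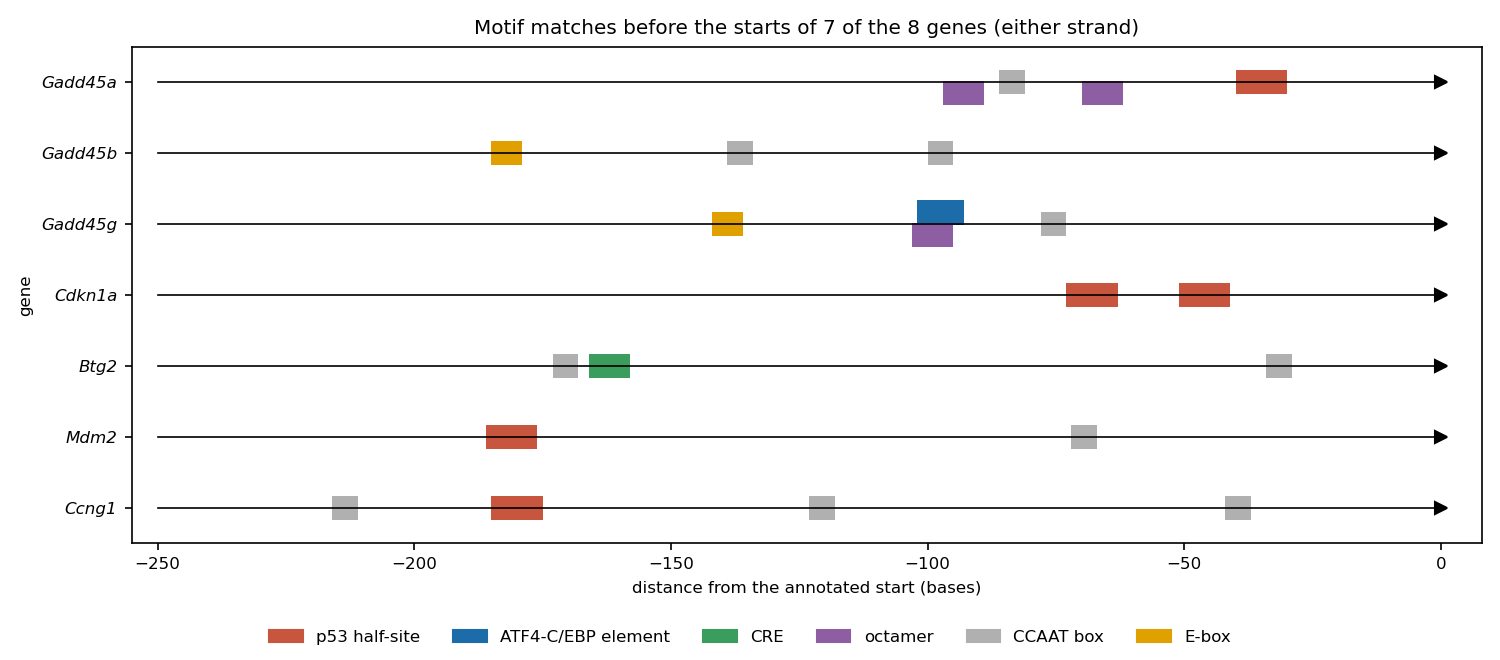
Positions of motif matches in the 250 bases before the annotated starts of 7 of the 8 genes. The x axis gives the distance from the start in bases, each coloured block is 1 match on either strand, and the arrowhead marks the start and the direction of transcription. Half-sites appear in Gadd45a, Cdkn1a, Mdm2 and Ccng1.

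The genes fell into 2 patterns. In DMSO, Gadd45a and Gadd45g overlapped between the genotypes and Gadd45b was higher in Perk-null cells. Cdkn1a, Btg2, Mdm2, Trp53inp1 and Ccng1 lay lower in Perk-null cells under all 6 treatments, with no overlap between the libraries of the 2 genotypes. Of all tested genes, 24.9% were called lower in Perk-null DMSO. The share of all genes that lay apart under all 6 treatments was not counted, so the separation is not read as particular to these genes. In WT DMSO libraries, levels per kilobase of the union of annotated exons were 63.8 ± 6.51 CPM per kb (SD, n = 3) for Ccng1. They were 20.3 ± 0.531 for Gadd45b, 17.4 ± 0.85 for Mdm2, 16.2 ± 2.2 for Gadd45g and 15.4 ± 0.609 for Cdkn1a. Gadd45a stood at 4.51 ± 0.737, Btg2 at 2.58 ± 0.299 and Trp53inp1 at 0.642 ± 0.269. This length is not that of a single transcript, so the order of close values need not hold per transcript. Ccng1 was the most abundant per length, and Gadd45a, Btg2 and Trp53inp1 the least. In Perk-null DMSO libraries Gadd45b led at 32.7 ± 3.95 CPM per kb and Trp53inp1 was last at 0.0224 ± 0.0132.

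**Figure D2:**
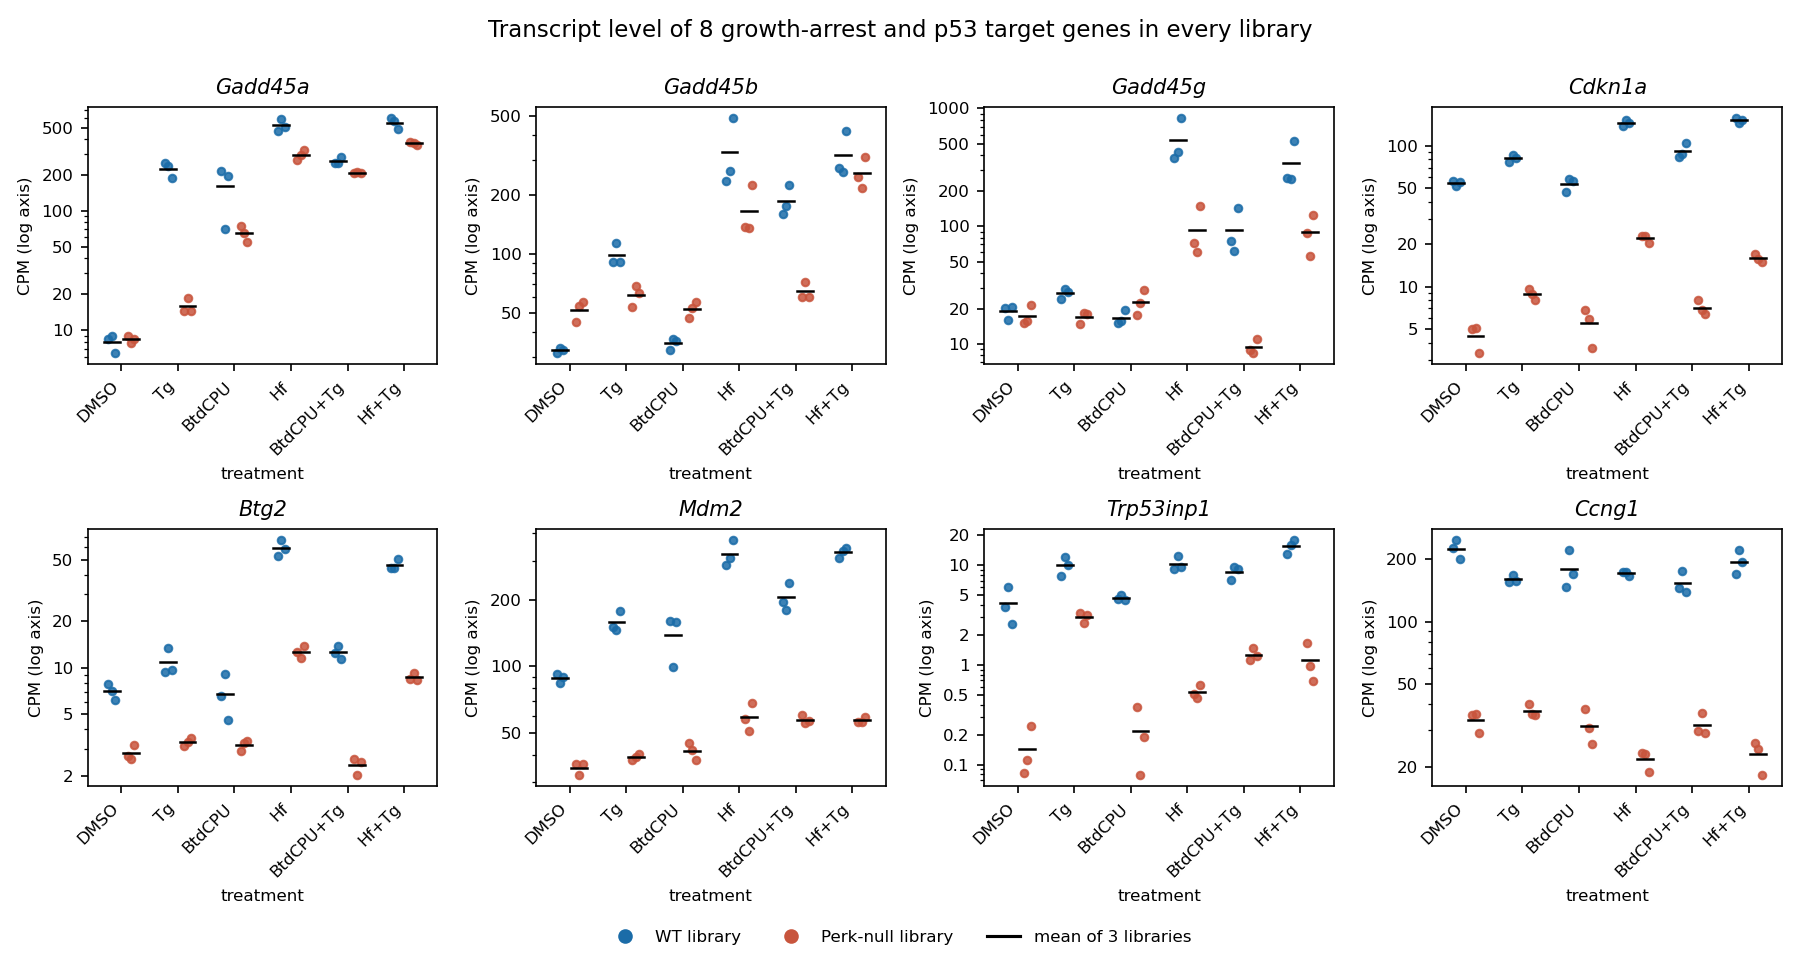
Transcript levels of the 8 genes in every library, 1 panel per gene. The y axis is CPM on a log axis, the x axis the treatment, points are single libraries (blue WT, red Perk-null) and bars are means of 3. The red points lie under the blue points at every treatment for Cdkn1a, Btg2, Mdm2, Trp53inp1 and Ccng1, but start level with them for Gadd45a and Gadd45g.

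Against DMSO in WT cells, 6 of the 8 genes were called higher and 1 lower with Tg, where 24.9% of all tested genes were called higher and 22.7% lower. BtdCPU gave 2 called higher and 0 lower (background 12.9% and 9.31%). Hf gave 7 called higher and 1 lower (background 34.7% and 33.4%). BtdCPU+Tg gave 7 called higher and 1 lower (background 28% and 24.5%), and Hf+Tg 7 higher and 0 lower (background 34.3% and 31.4%). In Perk-null cells Tg gave 3 called higher and 0 lower (background 15.2% and 12.7%), and BtdCPU 1 higher and 0 lower (background 2.55% and 1.04%). Hf gave 7 called higher and 1 lower (background 21.2% and 21%), BtdCPU+Tg 4 higher and 0 lower (background 16.8% and 14.6%), and Hf+Tg 7 higher and 1 lower (background 22.9% and 22.2%). These counts describe genes selected on results of these comparisons, and nothing is read from their distance to the background. Where none of the 8 was called lower by edgeR, 1 gene had an unadjusted p under 0.05 in WT BtdCPU and 1 in Perk-null BtdCPU+Tg, 0 in the other 3 comparisons, and DESeq2 called 0 in each. In WT BtdCPU the share of all called genes that were higher was 58.1% and became 45.1% when library size alone scaled the counts. In Perk-null BtdCPU that share went from 71.1% to 59.5% when the fit held just the 2 groups compared. Over all genes, WT BtdCPU replicate 2 differed widely from its 2 partners. The chi-square of counts per degree of freedom was 88.5 against replicate 1 and 115.9 against replicate 3, and 17.5 between those 2. Calls in WT BtdCPU, and their absence, carry this limit for every gene list used here.

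Markers of other cell types moved with some of these comparisons. The 4 epithelial markers summed to 0.114 to 0.337 CPM in WT DMSO, 0.416 to 4.24 in WT Tg, 0.183 to 0.482 in WT BtdCPU, 16.9 to 23.5 in WT Hf, 1.03 to 3.25 in WT BtdCPU+Tg and 7.97 to 10.5 in WT Hf+Tg libraries. Perk-null sums were 3.02 to 4.8 CPM in Hf libraries and 0.856 to 2.48 CPM over the other 5 groups. The WT Hf libraries were thus the highest, followed by WT Hf+Tg. The keratin genes Krt8 and Krt18 made up most of the WT Hf sums, with 9.72, 14.3 and 9.47 CPM for Krt8, from 0.114, 0.169 and 0.0929 in WT DMSO (log2 fold change 6.43 ± 0.62, edgeR adjusted p = 1.43e-10). Krt18 stood at 7.52, 8.62 and 6.35 CPM in WT Hf and at 0 in all 3 WT DMSO libraries. In Perk-null Hf, Krt18 went to 1.83, 2.14 and 2.99 CPM from 0.738, 0.689 and 1.02 (edgeR adjusted p = 0.0122). Epcam, a defining epithelial marker, stayed between 0 and 0.169 CPM in every library and was at 0 in all treated Perk-null libraries.

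The 3 endothelial markers summed to 2.73 to 5.06 CPM in WT Hf, mostly Kdr, and 1.27 to 2.04 in WT Hf+Tg. Their sums were 0.155 to 0.618 CPM in WT DMSO and 0.361 to 1.16 in the other 3 WT groups. Perk-null libraries held 0.437 to 0.887 CPM in DMSO, 1.51 to 1.69 in BtdCPU+Tg and 0.549 to 1.1 in the other 4 groups. The 4 haematopoietic markers summed to 6.86 to 9.74 CPM in Perk-null DMSO, 10.9 to 16.4 in Tg, 9.5 to 11.3 in BtdCPU, 14.3 to 22.9 in BtdCPU+Tg and 4.74 to 5.87 in Hf and Hf+Tg, mostly Csf1r, a growth factor receptor gene. WT libraries held 2.2 to 5.33 CPM, and the defining markers Ptprc and Adgre1 stood at 0 in all 3 WT DMSO libraries and at no more than 0.956 and 0.0801 CPM in any library. The part of these other cell types' markers in the changes of the 8 genes was not tested.

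**Figure D3:**
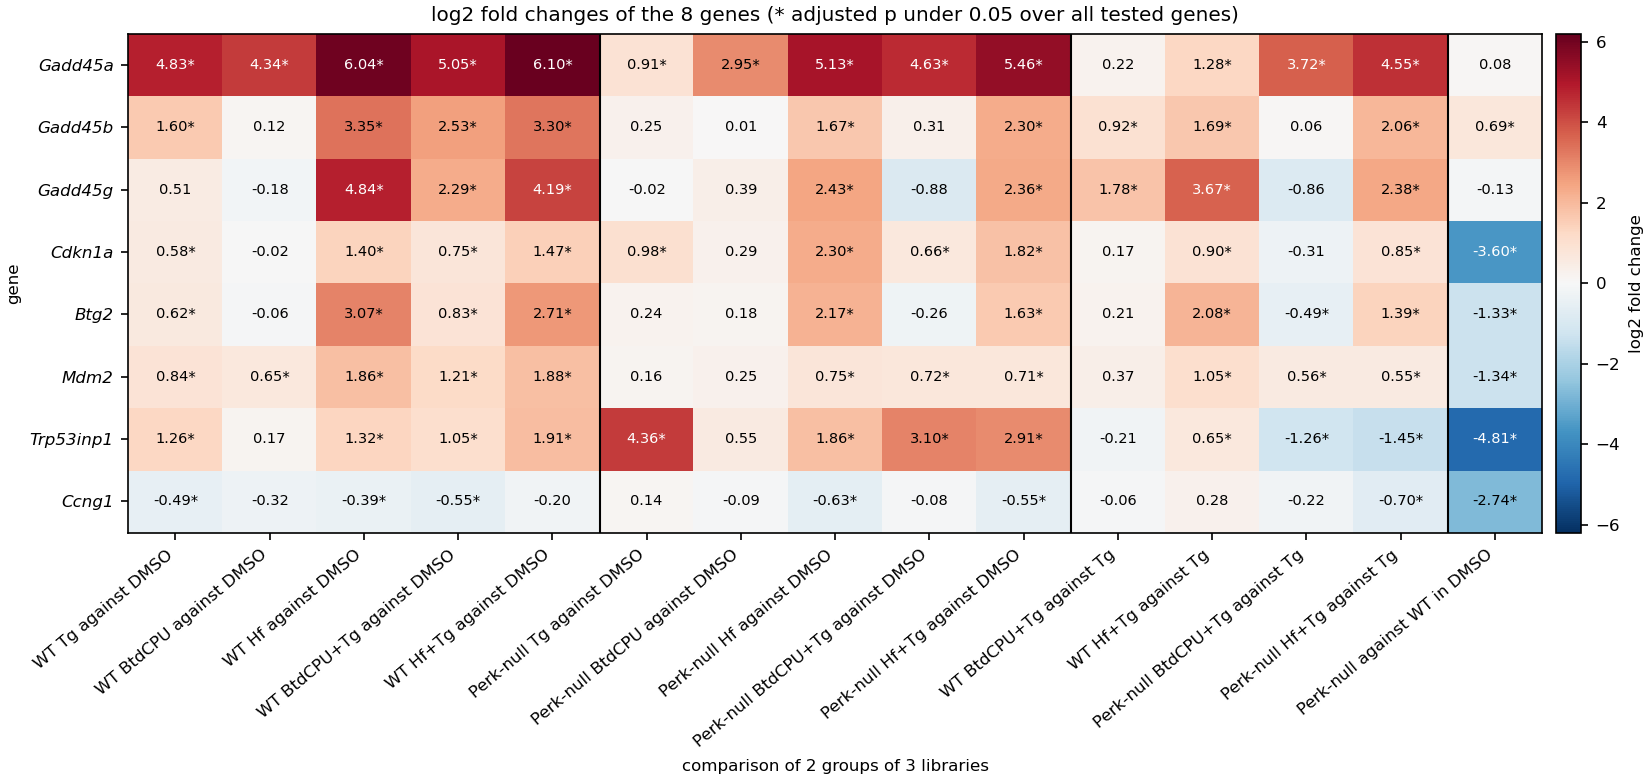
Log2 fold changes of the 8 genes (rows) in 15 comparisons of 2 groups (columns), coloured from blue (lower) to red (higher). An asterisk marks an adjusted p under 0.05 over all tested genes. Gadd45a runs from 0.91 in Perk-null Tg to 6.10 in WT Hf+Tg against DMSO and is the reddest row there except in Perk-null Tg, and the last column shows Perk-null against WT cells in DMSO.

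Gadd45a, the p53- and ATF4-responsive GADD45 gene, had the largest change of the 8 against DMSO in 9 of the 10 comparisons. The exception was Perk-null Tg, where Trp53inp1 changed more and Cdkn1a had a slightly larger value, within the SE. WT DMSO libraries held 8.51, 8.88 and 6.47 CPM and Perk-null DMSO libraries 8.93, 7.83 and 8.5 CPM, and the 2 groups overlapped. Tg brought WT libraries to 250.5, 239 and 189.7 CPM but Perk-null libraries only to 14.5, 18.6 and 14.4 CPM. The log2 fold change over DMSO was 4.83 ± 0.25 in WT cells and 0.91 ± 0.23 in Perk-null cells, and the Perk-null mean under Tg was 6.99% of the WT mean. BtdCPU gave 218, 70.5 and 195 CPM in WT and 74.7, 65.4 and 54.8 CPM in Perk-null libraries. WT BtdCPU replicate 2, which also differed from its 2 partners over all genes, was far below them and overlapped the Perk-null range. The changes were 4.34 ± 0.25 in WT and 2.95 ± 0.23 in Perk-null cells. Hf gave 472, 595 and 508 CPM in WT and 265, 295 and 322 CPM in Perk-null libraries, with changes of 6.04 ± 0.26 and 5.13 ± 0.25. All WT Hf libraries lay above all Perk-null Hf libraries.

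With both agents, Gadd45a of Perk-null cells rose to levels that Tg alone did not reach in them. BtdCPU+Tg gave 209, 210.4 and 207 CPM in Perk-null libraries, against 254, 254 and 284 CPM in WT libraries. Hf+Tg gave 381, 373 and 359 CPM in Perk-null and 596, 562 and 485 CPM in WT libraries. In the order of group means, WT Hf+Tg and WT Hf came first and overlapped, followed by Perk-null Hf+Tg, which was apart from both neighbours. Perk-null Hf overlapped WT BtdCPU+Tg, and WT Tg, Perk-null BtdCPU+Tg, WT BtdCPU and Perk-null BtdCPU each overlapped the next in turn. Perk-null Tg, apart from both neighbours, and the 2 DMSO groups closed the order. An annotated antisense gene, E230016M11Rik, overlaps Gadd45a. It held 11 to 250 counts, which is 5.26% to 13.4% of the Gadd45a counts in DMSO libraries and 0.614% to 8.91% in treated ones, and whether the counting used the strand of the reads is not given in the sources used here. The same holds for Cdkn1a, which an annotated gene on the opposite strand, AC167363.2, overlaps.

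Gadd45b, a GADD45 gene known for its response to NF-kappaB and TGF-beta, rose with Hf in both genotypes and with Tg in WT cells. DMSO libraries held 31.4, 33.1 and 32.4 CPM in WT and 44.9, 54 and 57 CPM in Perk-null cells, where it was higher by 0.69 ± 0.21 on the log2 scale. Under Tg, WT libraries held 91.2, 113 and 90.7 CPM, all above WT DMSO, and the change was 1.60 ± 0.22. Perk-null Tg libraries held 53.4, 68.5 and 63.5 CPM, overlapped their DMSO libraries and were not called at 0.25 ± 0.21. BtdCPU left Gadd45b at 32.4, 36.9 and 36.2 CPM in WT and 46.9, 53.2 and 56.8 CPM in Perk-null libraries, values that overlapped DMSO in both genotypes. Hf gave 235, 265 and 487 CPM in WT and 137, 135 and 225 CPM in Perk-null libraries, with changes of 3.35 ± 0.23 and 1.67 ± 0.22. Hf+Tg gave 273, 259.6 and 421 CPM in WT and 244, 216 and 310.3 CPM in Perk-null libraries, and these overlapped. BtdCPU+Tg separated the genotypes, with 159, 175 and 225 CPM in WT and 60.5, 72.2 and 60.1 CPM in Perk-null libraries. The log2 fold change over DMSO was 2.53 ± 0.22 in WT, and 0.31 ± 0.21, not called, in Perk-null cells. All Perk-null BtdCPU+Tg libraries lay above all Perk-null DMSO libraries, and the value was called, at 0.297, when the fit held just the groups compared.

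Gadd45g, the GADD45 gene known for induction by cytokines, responded mainly to Hf. DMSO libraries held 20.3, 16 and 20.7 CPM in WT and 15, 15.6 and 21.6 CPM in Perk-null cells. Hf raised WT libraries to 379, 429.6 and 822 CPM and Perk-null libraries to 72.2, 60.2 and 149 CPM, changes of 4.84 ± 0.38 and 2.43 ± 0.35. Hf+Tg gave 258, 252 and 528 CPM in WT and 86.9, 55.4 and 125 CPM in Perk-null libraries. Every WT library lay above every Perk-null library with Hf and with Hf+Tg, and in all 4 of these groups replicate 3 was the highest, for Gadd45g and for Gadd45b. BtdCPU+Tg moved the genotypes apart, to 75.4, 61.3 and 143 CPM in WT and 8.86, 8.44 and 11 CPM in Perk-null libraries. The change over DMSO was 2.29 ± 0.35 in WT cells. In Perk-null cells it was -0.88 ± 0.35, with all 3 libraries below all 3 DMSO libraries. That value was not called, but was called with RLE factors, library size scaling, no filter, the compared groups alone or a replicate block. Tg alone left Gadd45g at 24.2, 29.4 and 27.6 CPM in WT and 14.9, 18.4 and 18.1 CPM in Perk-null libraries. BtdCPU left it at 15.1, 15.6 and 19.5 CPM in WT and 17.5, 22.1 and 28.6 CPM in Perk-null libraries. The WT Tg libraries lay above all WT DMSO libraries. Tg and BtdCPU alone were called in neither genotype in the fit as reported, with changes from -0.18 ± 0.34 to 0.51 ± 0.34. The WT Tg value was called with no filter (0.48) and when the fit held just the WT Tg and DMSO groups (0.53).

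Of 4 genes for proteins that work with GADD45, none was called higher in WT cells by Tg, Hf, BtdCPU+Tg or Hf+Tg (edgeR, 0 at an unadjusted p under 0.05, 0 by DESeq2). Of all tested genes, 24.9%, 34.7%, 28% and 34.3% were called higher there. Map3k4, the GADD45-activated kinase MTK1, fell by 0.56 on the log2 scale in WT Tg (SE 0.096, edgeR adjusted p = 1.4e-05) and by 1.47 in WT Hf (SE 0.099, adjusted p = 4.52e-14). In Perk-null cells its change was 0.04 ± 0.096 with Tg and -0.86 ± 0.097 with Hf (adjusted p = 1.62e-08). Mapk14, which encodes the p38 alpha kinase downstream, was called lower with Tg in both genotypes. The genes of the other two, Map2k7 and Gadd45gip1, were called in neither genotype under Tg. Some values were called higher: Map3k4 in WT BtdCPU at 0.29 ± 0.096 (adjusted p = 0.027), with overlapping groups, and Map2k7, a kinase of the JNK pathway, in Perk-null Hf at 0.25 ± 0.097 (adjusted p = 0.0416), also overlapping, and in Perk-null Hf+Tg at 0.31 ± 0.097 (adjusted p = 0.00978), with no overlap.

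Cdkn1a, the gene of p21, was low in Perk-null cells throughout and still responded. DMSO libraries held 56.1, 52.1 and 55.6 CPM in WT and 4.97, 5.1 and 3.39 CPM in Perk-null cells. Tg gave 76.1, 86 and 82.3 CPM in WT and 9.62, 8.89 and 7.98 CPM in Perk-null libraries, changes of 0.58 ± 0.14 and 0.98 ± 0.15. Each Tg library lay above each DMSO library of its genotype. Hf gave 137, 152 and 144 CPM in WT and 22.8, 23 and 20.3 CPM in Perk-null libraries, changes of 1.40 ± 0.14 and 2.30 ± 0.15. Hf+Tg gave 156, 146 and 153 CPM in WT and 16.9, 15.7 and 15 CPM in Perk-null libraries, and BtdCPU+Tg 82.8, 87.4 and 105 CPM and 8.08, 6.81 and 6.4 CPM. BtdCPU alone gave 46.9, 58 and 56.6 CPM and 6.82, 5.89 and 3.69 CPM, which overlapped DMSO in each genotype. Over the 6 treatments the Perk-null mean was 7.73% to 15.2% of the WT mean, and the highest Perk-null library, under Hf, stayed below the lowest WT DMSO library.

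Btg2, an anti-proliferative partner of the CCR4-NOT deadenylase, was raised mainly by Hf. WT libraries held 7.86, 7.14 and 6.22 CPM in DMSO and 52.9, 66.7 and 59 CPM with Hf, and Perk-null libraries 2.7, 2.56 and 3.17 CPM and 12.6, 11.5 and 13.8 CPM. The changes were 3.07 ± 0.17 in WT and 2.17 ± 0.17 in Perk-null cells, with no overlap in either. Hf+Tg gave 44.2, 44 and 50.5 CPM in WT and 8.47, 9.3 and 8.35 CPM in Perk-null libraries, each below Hf alone in its genotype. Tg gave 9.41, 13.5 and 9.74 CPM in WT libraries, a change of 0.62 ± 0.16 that fell to 0.39 and was no longer called without WT Tg replicate 2. Perk-null Tg libraries held 3.12, 3.33 and 3.5 CPM and overlapped DMSO. BtdCPU+Tg gave 12.5, 13.8 and 11.4 CPM in WT and 2.57, 2.04 and 2.46 CPM in Perk-null libraries. BtdCPU alone overlapped DMSO in both genotypes.

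Among genes of related function, Btg1, also of the BTG family, was called higher in 9 of the 10 comparisons with DMSO, all but Perk-null BtdCPU. Its log2 change was 1.31 ± 0.1 in WT Hf (edgeR adjusted p = 2.44e-12) and 0.79 ± 0.1 in Perk-null Hf (adjusted p = 2.95e-07). In WT BtdCPU it was 0.30 ± 0.1 (adjusted p = 0.0387), with overlapping groups. Btg3 was called higher with every treatment in WT cells and with Hf and Hf+Tg in Perk-null cells. In Perk-null Tg Btg3 was called lower, at -0.55 ± 0.12 (adjusted p = 0.00053). The related Tob1 was called lower in WT BtdCPU (-0.66, groups overlapping) and Perk-null Hf (-0.95), but higher in WT Hf+Tg (0.44) and Perk-null Tg (1.10). Against DMSO, Tob2 was called only in Perk-null Hf, lower at -0.54. Of 5 other CDK inhibitor genes, 4 were called higher and 0 lower in Perk-null Tg (background 15.2% and 12.7%). In WT Tg 0 were called higher and 1 lower (background 24.9% and 22.7%). Where the count was 0, no gene had an unadjusted p under 0.05 and DESeq2 called 0. Cdkn1b, the gene of p27, rose in Perk-null Tg by 1.02 ± 0.15 (adjusted p = 4.6e-06), and its change in WT Tg was 0.11 ± 0.15 (adjusted p = 0.556). Cdkn2c, the gene of p18, fell in WT Hf by 2.54 on the log2 scale (SE 0.171, adjusted p = 4.52e-14).

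Genes that are high in cycling cells were read beside these inhibitors. Of 12 such genes, 12 were called lower in WT Tg, 9 in WT BtdCPU, 12 in WT Hf, 11 in WT BtdCPU+Tg and 12 in WT Hf+Tg. The shares of all tested genes called lower were 22.7%, 9.31%, 33.4%, 24.5% and 31.4%, in the same order. In Perk-null cells 2 were called lower with Tg, 3 with BtdCPU, 10 with Hf, 11 with BtdCPU+Tg and 10 with Hf+Tg. The shares there were 12.7%, 1.04%, 21%, 14.6% and 22.2%. None of the 12 was called higher in any of the 10 (edgeR, 0 at an unadjusted p under 0.05 and 0 by DESeq2). Of all tested genes, 2.55% (Perk-null BtdCPU) to 34.7% (WT Hf) were called higher. Cdk1, the mitotic kinase gene, changed by -0.92 ± 0.16 in WT Tg (adjusted p = 1.43e-05) and by -0.09 ± 0.16 in Perk-null Tg (adjusted p = 0.742). With Hf its changes were -1.08 ± 0.16 (adjusted p = 4.49e-07) and -0.63 ± 0.16 (adjusted p = 0.00139). Median changes of the 12 were -0.78 in WT Tg and -0.10 in Perk-null Tg, beside 0.01 and 0.05 over all tested genes.

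Mdm2, the ubiquitin ligase that restrains p53, rose with each treatment in WT cells. WT libraries held 92.6, 84 and 89.4 CPM in DMSO, 150.3, 146 and 178 CPM with Tg and 160.0, 99 and 159 CPM with BtdCPU. They held 288, 309.7 and 370.5 CPM with Hf, 196, 180.4 and 239 CPM with BtdCPU+Tg and 309.8, 331 and 341 CPM with Hf+Tg. No treated WT library overlapped WT DMSO, and the log2 changes ran from 0.65 ± 0.13 with BtdCPU to 1.88 ± 0.14 with Hf+Tg. As for Gadd45a, WT BtdCPU replicate 2 was the low library of its group, and when the fit held just the 2 groups the BtdCPU value, 0.65, was not called. Perk-null libraries held 36.2, 32.5 and 36.3 CPM in DMSO, 38, 39.2 and 40.2 CPM with Tg and 45, 42.1 and 37.8 CPM with BtdCPU. They held 57.8, 51.2 and 68.1 CPM with Hf, 60.3, 55.4 and 56.9 CPM with BtdCPU+Tg and 56, 56.4 and 59 CPM with Hf+Tg. Changes in Perk-null cells were 0.16 ± 0.13 with Tg and 0.25 ± 0.13 with BtdCPU, neither called, and 0.75 ± 0.13, 0.72 ± 0.13 and 0.71 ± 0.13 with Hf, BtdCPU+Tg and Hf+Tg. All treated Perk-null libraries lay above the Perk-null DMSO libraries. The highest Perk-null library, under Hf, was below the lowest WT DMSO library.

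Trp53inp1, whose product modifies p53 activity and takes part in autophagy, was close to the limit of detection in untreated Perk-null cells and rose there with Tg. WT DMSO libraries held 3.83, 6.04 and 2.6 CPM and Perk-null DMSO libraries 3, 4 and 9 counts, or 0.0819, 0.11 and 0.242 CPM. With Tg, Perk-null libraries held 124, 96 and 118 counts, or 3.36, 2.62 and 3.15 CPM, and WT libraries 7.77, 12.2 and 9.99 CPM. The changes were 4.36 ± 0.4 in Perk-null and 1.26 ± 0.26 in WT cells. Perk-null Tg was the Perk-null group with the highest Trp53inp1, apart from all the other Perk-null groups, whereas in WT cells Hf+Tg was highest. Perk-null BtdCPU libraries held 14, 3 and 7 counts and overlapped DMSO, and Perk-null Hf libraries held 19, 17 and 23 counts. Perk-null BtdCPU+Tg gave 1.12, 1.47 and 1.22 CPM and Perk-null Hf+Tg 1.67, 0.982 and 0.689 CPM, both below Perk-null Tg alone. In WT cells BtdCPU gave 4.61, 4.99 and 4.45 CPM, Hf 9.2, 12.4 and 9.65 CPM, BtdCPU+Tg 7.06, 9.61 and 9.26 CPM and Hf+Tg 13.1, 16.1 and 17.8 CPM. A few counts carry the Perk-null DMSO value, so its fold changes are imprecise.

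Ccng1, the gene of cyclin G1, which recruits the phosphatase PP2A to MDM2, was the only one of the 8 never called higher than DMSO. WT libraries held 225, 246 and 200.5 CPM in DMSO, 155, 168 and 157 CPM with Tg and 173, 174 and 166 CPM with Hf. The changes were -0.49 ± 0.14 and -0.39 ± 0.14, and without WT DMSO replicate 2 the Hf value was -0.32 and not called. BtdCPU+Tg changed WT Ccng1 by -0.55 ± 0.14. BtdCPU (-0.32 ± 0.14) and Hf+Tg (-0.20 ± 0.14) were not called in WT cells but were with the replicate block, at -0.34 and -0.21. Without WT BtdCPU replicate 2 the BtdCPU value was -0.505 and called. Perk-null libraries held 35.5, 35.9 and 29.2 CPM in DMSO, 39.9, 35.9 and 35.3 CPM with Tg, 23.2, 23 and 18.9 CPM with Hf and 25.9, 24.4 and 18.3 CPM with Hf+Tg. The last 2 lay below every Perk-null DMSO library, with changes of -0.63 ± 0.15 and -0.55 ± 0.15. Its relative Ccng2, encoding cyclin G2, moved in opposite directions in the genotypes under Tg. It fell in WT cells by 0.82 on the log2 scale (SE 0.207, edgeR adjusted p = 0.00156) and rose in Perk-null cells by 2.38 ± 0.21 (adjusted p = 3.54e-10), from 12.4, 13 and 11.7 to 61.1, 61.8 and 70.3 CPM.

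In DMSO, the comparison of genotypes gives the starting level of each gene. Perk-null cells had 5 of the 8 genes called lower and 1 higher, beside 24.9% of all tested genes lower and 24.6% higher. The log2 differences were -4.81 ± 0.4 for Trp53inp1, -3.60 ± 0.16 for Cdkn1a, -2.74 ± 0.15 for Ccng1, -1.34 ± 0.13 for Mdm2 and -1.33 ± 0.17 for Btg2. Gadd45a (0.08 ± 0.23) and Gadd45g (-0.13 ± 0.34) were not called. Of 30 other known p53 target genes, 29 were tested, and 18 were called lower and 3 higher. Their median was -0.59, beside 0.02 over all tested genes. Dcxr, a carbonyl reductase gene, differed by -7.09 ± 0.42 (edgeR adjusted p = 2.81e-15), with 12.8, 14.9 and 14.5 CPM in WT and 0.0273, 0.276 and 0 CPM in Perk-null libraries, a value that rests on few counts in Perk-null cells. Eda2r, encoding a TNF-family receptor, differed by -3.26 ± 0.29 (adjusted p = 4.1e-11). Fas, the death receptor gene, was higher by 0.84 ± 0.33 (adjusted p = 0.0311), a call lost without WT DMSO replicate 2 or 3 or Perk-null DMSO replicate 3, and Rap2b, a small GTPase gene, by 0.71 ± 0.16 (adjusted p = 0.000555).

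Transcripts of p53 itself and of its regulators differed as well. Trp53 stood at 284, 252 and 336 CPM in WT DMSO and 40.8, 36.2 and 39.3 CPM in Perk-null DMSO libraries, a difference of -2.91 ± 0.095 (edgeR adjusted p = 1.49e-21). Cdkn2a, which encodes the MDM2 inhibitor ARF and the CDK inhibitor p16, stood at 8.29, 10.2 and 9.29 CPM in WT and 473, 464 and 433 CPM in Perk-null libraries, a difference of 5.62 ± 0.14 (adjusted p = 1.65e-24). Its ARF and p16 transcripts share 1 count, so the values do not say which was high. Over the 6 treatments Trp53 in Perk-null cells was 8.99% to 45.6% of its WT level, and no libraries of the 2 genotypes overlapped for Trp53 or Cdkn2a. Hf lowered Trp53 in WT cells to 98.4, 114 and 107 CPM (-1.45 ± 0.09, adjusted p = 6.89e-15) and raised it in Perk-null cells to 48.5, 50.1 and 44 CPM (0.29 ± 0.09, adjusted p = 0.00837). Mdm4, the gene of the MDM2 partner MDMX, rose with all 5 treatments in WT cells, by 1.05 ± 0.091 with Hf (adjusted p = 1.5e-11). The part of Trp53 and Cdkn2a in the levels of the 8 genes was not tested, and the PERK genotype and any other difference between the 2 cultures cannot be told apart.

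**Figure D4:**
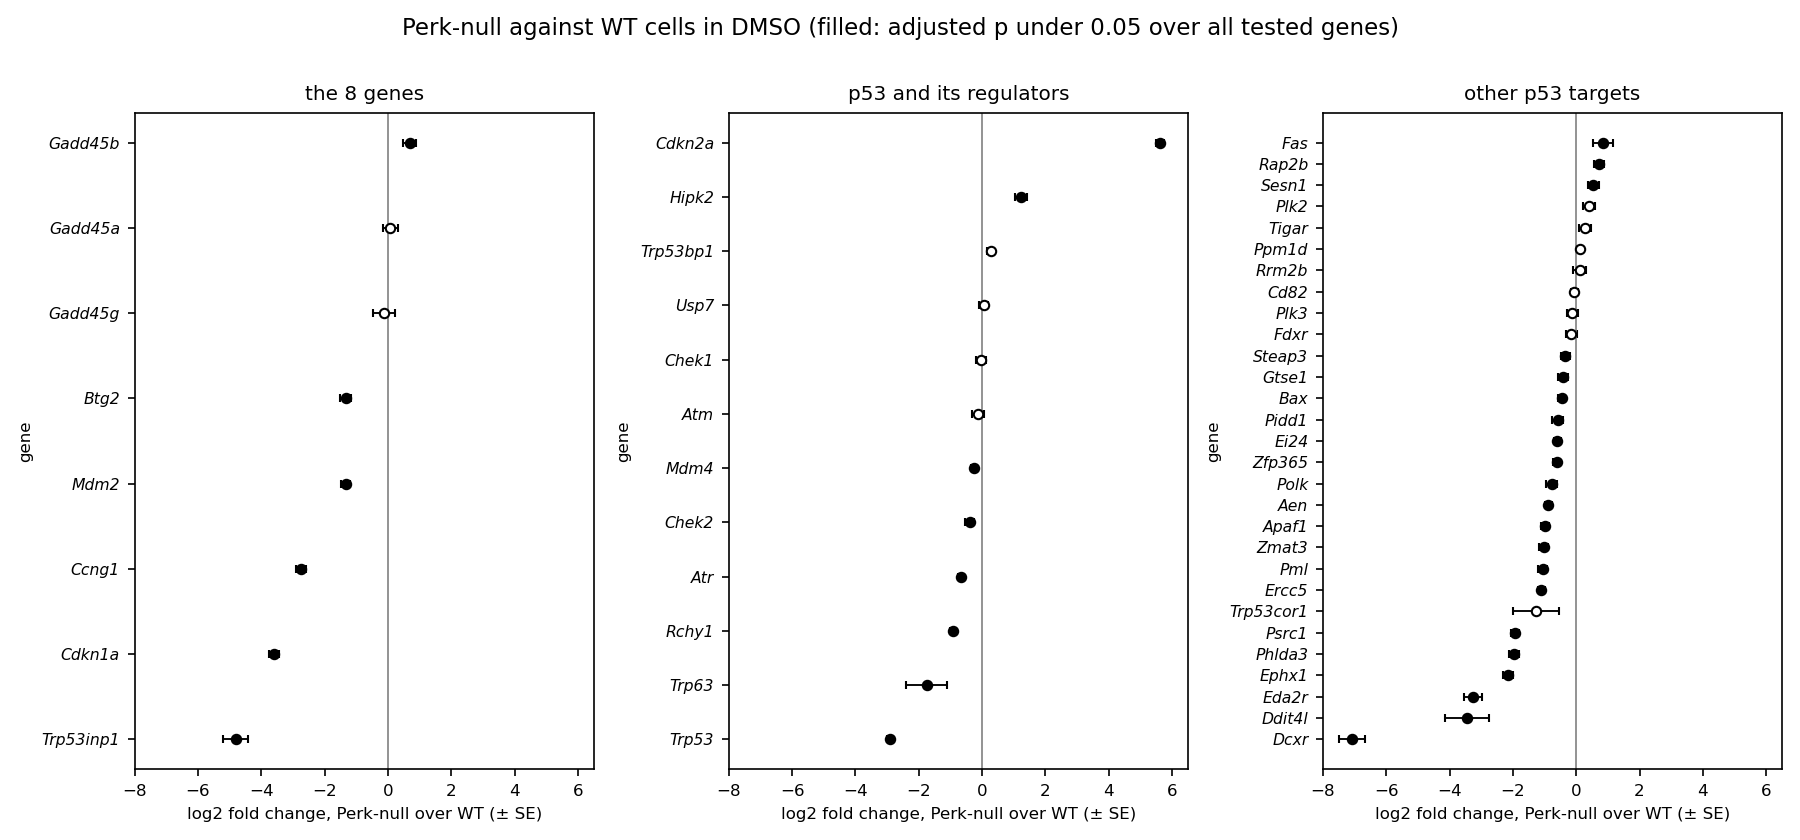
Perk-null against WT cells in DMSO. The x axis is the log2 fold change with its SE, rows are the 8 genes (left), p53 and its regulators (middle) and 29 other p53 targets (right), and filled points have an adjusted p under 0.05 over all tested genes. Trp53inp1, Cdkn1a, Ccng1, Mdm2 and Btg2 lie left of 0, as do Trp53 and 18 called p53 targets, and Cdkn2a lies far to the right.

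The other p53 targets split in direction under every treatment, as all tested genes did. In WT cells the numbers called higher and lower of 29 were 11 and 6 with Tg, 6 and 7 with BtdCPU, 12 and 12 with Hf, 11 and 9 with BtdCPU+Tg and 13 and 8 with Hf+Tg. In Perk-null cells they were 7 and 4, 1 and 2, 8 and 12, 10 and 8, and 9 and 11, in the same order. The shares of all tested genes in WT cells were 24.9% and 22.7%, 12.9% and 9.31%, 34.7% and 33.4%, 28% and 24.5%, and 34.3% and 31.4%. Those in Perk-null cells were 15.2% and 12.7%, 2.55% and 1.04%, 21.2% and 21%, 16.8% and 14.6%, and 22.9% and 22.2%. List medians ran from -0.07 (Perk-null Hf+Tg) to 0.24 (WT Hf+Tg), beside 0.00 and 0.05 over all tested genes. When the fit held just the groups compared, 5 of the 29 were called in WT BtdCPU in place of 13, and 6 in Perk-null BtdCPU in place of 3. Over all genes that fit called 1265 in Perk-null BtdCPU in place of 577, and its total for WT BtdCPU is not given here. Without Perk-null DMSO replicate 1, 0 of the 29 were called in Perk-null BtdCPU. Plk2 and Plk3, stress-responsive polo-like kinase genes, led the rises in WT Hf, by 3.70 ± 0.22 (edgeR adjusted p = 1.93e-15) and 3.75 ± 0.2 (adjusted p = 2.5e-16). Plk3 rose in WT Tg by 1.25 ± 0.18 (adjusted p = 1.35e-06) and fell in Perk-null Tg by 2.04 (SE 0.198, adjusted p = 1.93e-09), from 20, 24.2 and 24.3 to 5.18, 5.86 and 5.61 CPM. Sesn1, the sestrin 1 gene, fell in WT Hf by 1.63 (SE 0.186, adjusted p = 4.01e-09) and in Perk-null Hf by 1.29 (SE 0.179, adjusted p = 6.69e-07), but rose in Perk-null Tg by 1.07 ± 0.17 (adjusted p = 1.83e-05). Steap3, a metalloreductase gene, fell in WT Tg by 1.46 (SE 0.144, adjusted p = 7.75e-10), WT Hf+Tg by 1.93 and Perk-null Hf+Tg by 1.64, but rose in Perk-null BtdCPU+Tg, from 39, 38.9 and 36.1 to 83.6, 85.6 and 93.4 CPM (adjusted p = 4.7e-08). In WT Tg, Plk2 rose by 1.74 ± 0.2, Fas by 1.60 ± 0.32, and Ei24, an endoplasmic reticulum protein gene, fell by 0.97 on the log2 scale (SE 0.112, adjusted p = 2.08e-08). Ephx1, an epoxide hydrolase gene, rose in Perk-null Tg by 1.31 ± 0.15 (adjusted p = 7.75e-08), while Aen, a nuclease gene, fell there by 1.52 (SE 0.117, adjusted p = 1.73e-11). Fdxr, the ferredoxin reductase gene, fell in WT Hf by 1.73 (SE 0.195, adjusted p = 3.23e-09). Pidd1, a death-domain adaptor gene, and Pml, the nuclear body scaffold gene, fell in Perk-null BtdCPU+Tg by 1.38 (SE 0.183, adjusted p = 4.66e-07) and 1.00 (SE 0.146, adjusted p = 2.37e-06). Psrc1, a spindle protein gene, fell in Perk-null Hf by 1.37 (SE 0.13, adjusted p = 5.74e-10), and Eda2r rose there by 2.29 ± 0.29 (adjusted p = 1.1e-07).

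Some genes are known as targets of both p53 and ATF4 or CHOP. Of 6 such genes, 3 to 5 were called higher in each of the 10 comparisons with DMSO, and 1 was called lower, Ddit4 in WT Hf. The share of all tested genes called higher ran from 2.55% in Perk-null BtdCPU to 34.7% in WT Hf, where 33.4% were called lower. In the 9 comparisons with none called lower, 0 had an unadjusted p under 0.05 in that direction and DESeq2 called 0. Sesn2, the sestrin 2 gene, was called higher in all 10, from 0.75 ± 0.088 in Perk-null Tg (edgeR adjusted p = 7.83e-08) to 2.83 ± 0.092 in Perk-null Hf (adjusted p = 7.89e-21). In untreated Perk-null cells 4 of the 6 were called lower, beside 24.9% of all tested genes. Sesn2 differed by -1.30 ± 0.089 (adjusted p = 1.08e-13). Of 7 readouts of the integrated stress response, 7 were called higher in 9 of the 10 comparisons with DMSO and 5 in Perk-null Tg. In Perk-null Tg 15.2% of all tested genes were called higher, and 2.55% to 34.7% in the other comparisons. Gadd45a rose least in Perk-null Tg, and a link to these readouts was not tested.

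Comparing each combination with Tg alone asks what a compound adds when the endoplasmic reticulum is stressed. In Perk-null cells BtdCPU+Tg had 2 of the 8 genes called above Tg alone and 2 below (background 17.3% and 18.3%). Gadd45a was higher by 3.72 ± 0.24 and Mdm2 by 0.56 ± 0.13, while Trp53inp1 differed by -1.26 ± 0.29 and Btg2 by -0.49 ± 0.18. The Btg2 call was lost without Perk-null BtdCPU+Tg replicate 1, 2 or 3, without Perk-null Tg replicate 2 or 3, and with no filter on low counts, with values from -0.52 to -0.36. With a replicate block, Gadd45g (-0.88) and Cdkn1a (-0.32) were also called lower. Gadd45g was called lower as well with library size scaling (-0.89), no filter (-0.83) or the compared groups alone (-0.83). In WT cells BtdCPU+Tg had 2 called above Tg and 0 below (background 1.29% and 1.02%; 0 at an unadjusted p under 0.05 and 0 by DESeq2 for lower). These were Gadd45g, at 1.78 ± 0.34, and Gadd45b, at 0.92 ± 0.21. Without WT BtdCPU+Tg replicate 3 they were 1.33 and 0.76 and neither was called, and Gadd45b also lost its call without WT Tg replicate 1 or 3 or when the fit held just the 2 groups. WT Gadd45a differed by 0.22 ± 0.21, not called, and Mdm2 by 0.37 ± 0.13, called only with a replicate block or with library size scaling. Under that scaling the share of higher genes among all called in this comparison went from 55.9% to 80.7%. Of the 29 other p53 targets 1 was called here, Ercc5, a DNA repair gene, by 0.43 ± 0.12 (edgeR adjusted p = 0.0416), a call lost without WT BtdCPU+Tg replicate 2 or 3 or any 1 WT Tg library. With a replicate block 8 were called, and the share of all genes called in that fit is not given here.

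Adding Hf to Tg moved more of the genes. In WT cells Hf+Tg had 7 of the 8 genes called above Tg and 0 below (background 22.8% and 22.5%; 0 at an unadjusted p under 0.05 and 0 by DESeq2 for lower). Gadd45g rose by 3.67 ± 0.36, Btg2 by 2.08 ± 0.16, Gadd45b by 1.69 ± 0.21 and Gadd45a by 1.28 ± 0.21. Trp53inp1 rose by 0.65 ± 0.25, a call lost without WT Hf+Tg replicate 2 or 3, without WT Tg replicate 1 or 3, or when library size alone scaled the counts. Ccng1 differed by 0.28 ± 0.14 and was called with a replicate block, at 0.27. In Perk-null cells Hf+Tg had 6 called above Tg and 2 below (background 25.2% and 27.5%). Gadd45a rose by 4.55 ± 0.24, Gadd45g by 2.38 ± 0.35, Gadd45b by 2.06 ± 0.22 and Btg2 by 1.39 ± 0.17. Trp53inp1 (-1.45 ± 0.3) and Ccng1 (-0.70 ± 0.15) were the 2 below. These comparisons share their Tg libraries with those against DMSO.

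The response of Perk-null cells minus that of WT cells was fitted directly. For Tg, 3 of the 8 genes were called with a lower response in Perk-null cells and 2 with a higher one (background 18.6% and 19.5%). For BtdCPU, 0 were called lower and 0 higher (background 0.162% and 0.0373%). There edgeR gave 2 genes at an unadjusted p under 0.05 in the lower direction and 0 in the higher, and DESeq2 called 1 lower, Gadd45a. Over all genes, 18.8% of the 32 genes called for BtdCPU were higher. When the fit held just the 4 groups compared, 1 was higher and 1 lower. Without WT BtdCPU replicate 2, the low library for Gadd45a, 2 of the 8 were called lower, Gadd45a at -1.75 and Mdm2 at -0.60. For Hf, 5 were lower and 1 higher (background 17.5% and 17.5%). For BtdCPU+Tg, 3 were lower and 1 higher (background 12.6% and 12%), and for Hf+Tg, 4 were lower and 0 higher (background 15% and 13.5%, with 0 higher at an unadjusted p under 0.05 and 0 by DESeq2). Relative to Tg alone, BtdCPU+Tg had 3 lower and 1 higher (background 10.1% and 10.7%) and Hf+Tg 5 lower and 1 higher (background 16.9% and 15.9%). The share of higher genes among all called for BtdCPU+Tg against Tg was 51.6%, and 41.4% when library size alone scaled the counts. Without WT BtdCPU+Tg replicate 2 2 of the 8 genes were called for BtdCPU+Tg against Tg in place of 4, and without WT Hf+Tg replicate 3, 3 were called for Hf+Tg against Tg in place of 6. Among the 8 genes, Gadd45a gave the largest differences in either direction, -3.92 ± 0.33 for Tg and 3.50 ± 0.31 for BtdCPU+Tg against Tg. Trp53inp1 went the other way for Tg, at 3.10 ± 0.5, and Cdkn1a had a larger response in Perk-null cells to Hf, at 0.89 ± 0.2.

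Likeness of pattern was measured by Pearson's r of the 12 group means of log2 CPM over 10565 genes, as a description of points that share libraries and scaling. Gadd45a was most like Slc7a1, a cationic amino acid transporter gene (r = 0.988), and Bre (0.986). Gadd45b was most like the histone genes Hist1h2bj and Hist1h2be (both 0.983), and Gadd45g like Klf6 (0.984) and Esco1 (0.98). Cdkn1a was most like Cep83os (0.992) and Atp6v0a4 (0.984), Mdm2 like Arhgef28 (0.995) and Rest (0.994), and Ccng1 like Pde8b (0.994) and Meis3 (0.992). Trp53inp1 had the lowest best match, Zfp516 (0.967), then Mbnl2 (0.966), and Btg2 was most like D130020L05Rik (0.987) and Strn3 (0.981). Among the 8 themselves, r was 0.953 between Cdkn1a and Mdm2 and 0.934 between Gadd45g and Btg2, but 0.122 between Gadd45a and Ccng1 and 0.047 between Gadd45b and Ccng1.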

How the data were processed

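RNA was extracted with a Zymo kit and strand-specific DNBSEQ libraries were made, per the labels' protocols. Values are estimated counts, unscaled, in 1 table of 36930 entries deposited by the authors, with 0.025 in place of 0 (50.596% of values). The submitters' processing notes name DESeq and GRCm39, and no aligner or counter is given in the sources used here. Here 27 entries named by dates (0.206% to 0.278% of counts) were left out, 39 repeated symbols summed and counts rounded to whole numbers. A quasi-likelihood model in edgeR 4.0.16 (R 4.3.3) was fitted to 12 group means over 36 libraries, with TMM scaling and filterByExpr, and the Benjamini-Hochberg adjustment ran over 16065 genes. On simulated data for WT Tg against DMSO (15823 genes), 69 of 70 genes changed 2-fold were called at an average log2 CPM of at least 1 but 8 of 29 below it, 37 of 76 and 1 of 24 changed 1.5-fold, and 4 of 119 calls were of unchanged genes. The simulation gave every gene the same dispersion and no shared replicate effect. Its rates need not hold for genes or libraries that vary more. The 8 genes and the gene lists were chosen with earlier results of these data known. Named from the p53 target list were the 2 largest called rises and falls per comparison with no overlap between groups and an average log2 CPM of at least 1 (each such gene is printed for at least 1 comparison). The 2 genes most like each gene were taken above an average log2 CPM of 2, with a prior count of 2. Group comparisons within 1 table used no batch term, since the labels give none. Same-numbered replicates deviated together (every correlation over 0.1) in 9 of 15 comparisons of 2 groups, so the replicate block counts as paired there, and not in the other 6. The cut-off is a working rule and does not show that replicates were unpaired in those 6. WT BtdCPU+Tg against DMSO, for example, missed it at 0.021 for replicate 1, beside 0.621 and 0.525 for replicates 2 and 3. DESeq2 1.42.0, RLE factors, library size, no filter, unrounded counts, fewer groups and left-out libraries were alternatives.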

Additional observations from a re-analysis of the deposited data

Results flagged for a closer look

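In 29 cases the change of one of the 8 genes differed between the genotypes by a test of the difference itself, Perk-null response minus WT response on the log2 scale (edgeR interaction term, adjusted over all 16065 genes). The genes were chosen with these data known, so the values are a description and nothing is read from their number. Shares of all tested genes called lower and higher were 18.6% and 19.5% for Tg and 17.5% and 17.5% for Hf. They were 0.162% and 0.0373% for BtdCPU, 12.6% and 12% for BtdCPU+Tg, and 15% and 13.5% for Hf+Tg. Against Tg alone they were 10.1% and 10.7% for BtdCPU+Tg and 16.9% and 15.9% for Hf+Tg. For Tg against DMSO the values of the 8 genes called were -3.92 ± 0.325 (SE) for Gadd45a, -1.36 ± 0.301 for Gadd45b, -0.67 ± 0.187 for Mdm2, 0.63 ± 0.206 for Ccng1 and 3.1 ± 0.5 for Trp53inp1. The 3 negative values belong to genes that WT cells raised with Tg, and the Trp53inp1 value starts from 3 to 9 counts per library in Perk-null DMSO. For Hf they were -0.92 for Gadd45a, -1.68 for Gadd45b, -2.41 for Gadd45g, 0.89 for Cdkn1a, -1.11 for Mdm2 and -0.91 for Btg2. For Hf+Tg they were -0.99 for Gadd45b, -1.83 for Gadd45g, -1.18 for Mdm2 and -1.08 for Btg2. For BtdCPU+Tg they were -2.22 for Gadd45b, -3.18 for Gadd45g, 2.05 for Trp53inp1 and -1.08 for Btg2.

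Against Tg alone, BtdCPU+Tg gave 3.5 for Gadd45a, -0.87 for Gadd45b, -2.64 for Gadd45g and -0.7 for Btg2. Hf+Tg against Tg gave 3.27 for Gadd45a, -1.29 for Gadd45g, -0.5 for Mdm2, -0.98 for Ccng1, -2.1 for Trp53inp1 and -0.69 for Btg2. Some of these calls rest on single libraries. The Gadd45a value for Hf was lost with a replicate block (-0.92) and without WT Hf replicate 2, WT DMSO replicate 3, Perk-null Hf replicate 1 or 2, or Perk-null DMSO replicate 1 or 3 (-0.78 to -0.87). The Gadd45b value for Hf+Tg was lost without WT Hf+Tg replicate 3 (-0.74) or Perk-null Hf+Tg replicate 2 (-0.84). The Gadd45b and Btg2 values for BtdCPU+Tg against Tg, and the Gadd45g, Mdm2 and Btg2 values for Hf+Tg against Tg, were each lost on leaving out any of several single libraries. The lowest sizes among these were -0.67 for Gadd45b and -0.56 for Btg2 with BtdCPU+Tg, and -0.85 for Gadd45g, -0.4 for Mdm2 and -0.6 for Btg2 with Hf+Tg. With a replicate block, calls were gained for Gadd45a with BtdCPU (-1.37), Cdkn1a with Tg (0.41), Hf+Tg (0.36) and BtdCPU+Tg against Tg (-0.49), Mdm2 with BtdCPU+Tg (-0.48), Ccng1 with BtdCPU+Tg (0.48) and Hf+Tg (-0.35), and Trp53inp1 with BtdCPU+Tg against Tg (-1.05). Of these, the Gadd45a, Mdm2 and Trp53inp1 values, and that of Ccng1 with BtdCPU+Tg, were also called under other settings.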

How the results depend on the processing

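The 176 log2 values of the 8 genes kept their direction and moved by less than the replicate spread with RLE factors, library size as the only scaling, DESeq2, no filter, unrounded counts and the replicate block. So did the 175 that had a value when the fit held just the groups compared, where Trp53inp1 in Perk-null BtdCPU did not pass the filter. On leaving out single libraries 58 of 1392 moved further. Library size as the only scaling shifted the median of all genes by -0.114 in WT Hf and by 0.103 in the genotype difference for Hf. Counts of called members that changed by more than 1.5 times are given next, and those of other comparisons changed by at most 2 genes. In WT BtdCPU, 1 was called with only the compared groups (2 as reported). In WT BtdCPU+Tg against Tg, 1 was called with only the compared groups, and 0 to 2 on leaving out single libraries. For the genotype difference with BtdCPU, 0 in the fit as reported, 1 was called by DESeq2, 1 with no filter, 1 with the replicate block and 0 to 2 on leaving out single libraries. For BtdCPU+Tg against Tg that difference gave 2 to 5 in place of 4, and for Hf+Tg against Tg 3 to 6 in place of 6. Counts of called p53 targets were 5 in WT BtdCPU with only the compared groups (13 as reported). In Perk-null BtdCPU (3 as reported) they were 6 with no filter, 8 with the replicate block, 6 with only the compared groups and 0 to 3 on leaving out libraries. In WT BtdCPU+Tg against Tg (1 as reported) they were 0 with RLE factors, 3 by DESeq2, 2 with no filter, 8 with the replicate block, 0 with only the compared groups and 0 to 1 on leaving out libraries. For the genotype difference with BtdCPU (0 as reported) they were 2 with no filter, 3 with the replicate block and 0 to 6 on leaving out libraries. The cause was not tested for any of these, and fewer libraries enter the fits of just the groups compared. Shares of all genes called under most of these settings are not given here, so nothing is read from the changed counts. Depth limits Trp53inp1 in Perk-null DMSO most, with 3, 4 and 9 counts.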
